A study of Mus musculus with 4 samples.

Results

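The comparison of aspirin plus acetaminophen with control is a list of 44 transcripts, every row of the authors' deposited table that sets the ASP+ACE testis library against the Control testis library. The 6 deposited tables hold 726 rows and 382 distinct transcripts in all. Both libraries came from gonads of wildtype CD1 mouse embryos at E13.5, separated from the mesonephros, the embryonic kidney that lies against the gonad. The labels give the treatment as none for Control, which the table names EtOH, and as aspirin with acetaminophen for ASP+ACE. The other libraries, used here for their values alone, were ACE+ACE (acetaminophen) and IBU+ACE (ibuprofen with acetaminophen). No source used here gives doses, days of exposure or the number of embryos behind a library. CD1 is an outbred stock.

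Each group was 1 library, which leaves every difference without a replicate check, and no test was run. Values are the authors' deposited levels, read as FPKM (fragments scaled to transcript length and to the mapped fragments of the library), and the depth behind them is unknown. A transcript is called listed, higher or lower as the authors' deposited table has it, with a q of 0.0310 in all 44 rows. The table holds called rows alone (100% of them), so its counts describe the list and measure no rate of change. Among genes that define the testis, Sox9 of Sertoli cells had 5.98 FPKM in Control and 5.22 FPKM in ASP+ACE, and Lefty1 of fetal germ cells had 9.37 and 8.41 FPKM. Neither was listed between the libraries, and most other testis markers have no value in the tables used here. Coordinates are those of the deposited loci on GRCm38, counted from 1.

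Aspirin blocks the cyclooxygenases, the enzymes that turn arachidonic acid into prostaglandins, and acetaminophen lowers prostaglandin synthesis more weakly. In the fetal testis a D-type prostaglandin made by Sertoli cells and germ cells helps to keep Sox9 on. At this stage Sertoli cells have enclosed the germ cells in cords, Leydig cells begin to make androgen, and male germ cells stop dividing.

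Of the 44 transcripts, 29 were lower in ASP+ACE (65.9%) and 15 were higher (34.1%). A gene name was attached to 21 of them, of which 15 were lower and 6 higher. The other 23, of which 14 were lower and 9 higher, overlapped no gene of the GENCODE M21 annotation. The named set held 13 protein-coding genes, of which 11 were lower, 3 pseudogenes, 3 small RNA genes, and the non-coding RNAs Gm14230 and A230004M16Rik. Values were above 0 in both libraries for 32 transcripts, of which 24 were lower. For the lower ones the log2 fold change of ASP+ACE over Control lay between -3.15 and -0.62, median -1.58. For the 8 higher ones it lay between 0.75 and 3.24, median 0.94. Among the 32, 19 changed at least 2-fold (59.4%), 16 of them downward and 3 upward. The other 12 transcripts were listed at 0 in 1 of the libraries.

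**Figure D1:**
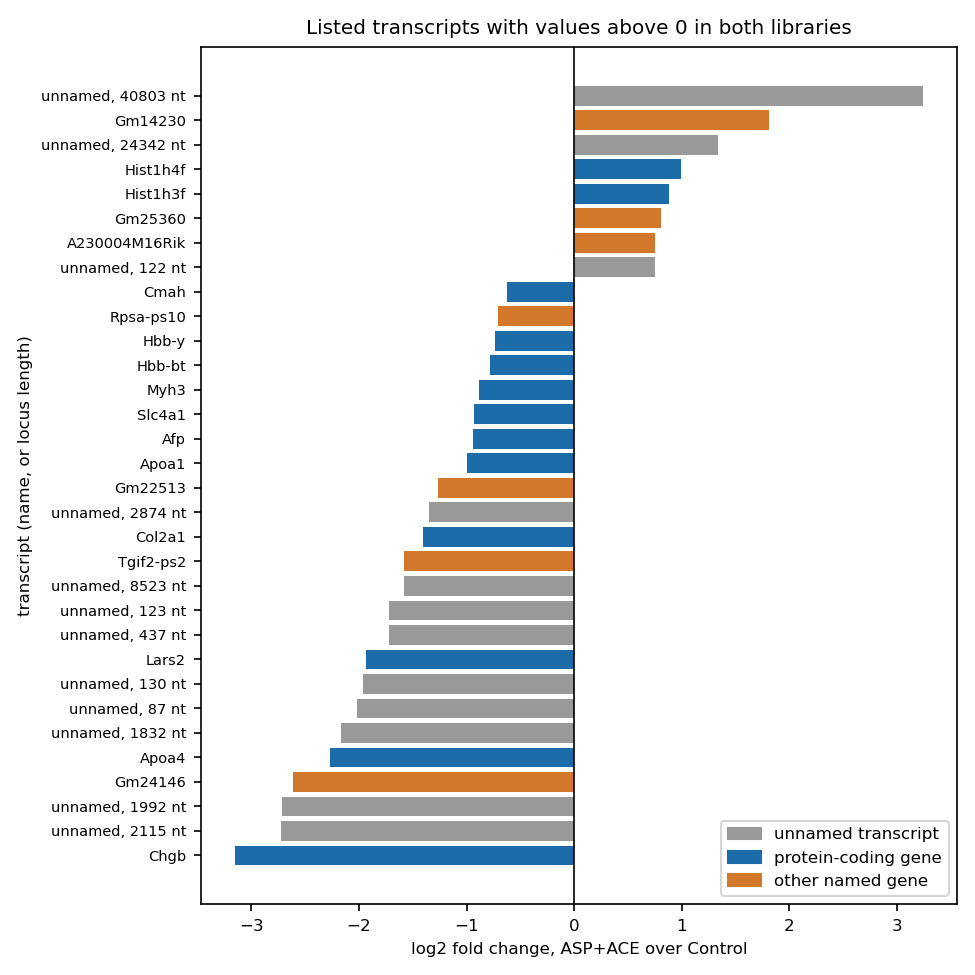
Bars give the log2 fold change of ASP+ACE over Control (x axis) for the 32 listed transcripts with values above 0 in both libraries, in order of size, coloured by kind of transcript. The 24 lower transcripts run down to Chgb at -3.15, and the 8 higher ones up to an unnamed transcript at 3.24.

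Small nuclear RNA genes are shown first, with their annotated sequences. U1 and U2 are RNAs of the spliceosome: the start of U1 pairs with the intron's beginning, and a short stretch of U2 pairs with the branch point. 7SK is an RNA that holds the elongation factor P-TEFb in an inactive complex. The sequences below are those of the GENCODE M21 transcripts, printed as DNA from the 5′ end. Capitals mark the bases that pair with the 5′ splice site in Gm22513, those that pair with the branch point in Gm25360, and the longest run shared with Rn7sk in Gm24146. Gm24146 is shown from base 101 to base 279.
Gm22513: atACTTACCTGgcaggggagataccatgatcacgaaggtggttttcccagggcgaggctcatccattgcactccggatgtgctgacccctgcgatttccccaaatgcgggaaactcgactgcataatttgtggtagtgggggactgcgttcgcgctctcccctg
Gm25360: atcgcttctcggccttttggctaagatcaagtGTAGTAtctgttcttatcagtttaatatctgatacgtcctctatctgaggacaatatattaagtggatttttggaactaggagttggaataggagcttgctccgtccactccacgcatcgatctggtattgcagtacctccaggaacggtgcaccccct
Gm24146: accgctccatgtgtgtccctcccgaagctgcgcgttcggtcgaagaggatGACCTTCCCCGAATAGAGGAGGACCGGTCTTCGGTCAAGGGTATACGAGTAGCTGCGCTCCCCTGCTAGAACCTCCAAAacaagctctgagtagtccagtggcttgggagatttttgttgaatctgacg

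Gm22513 (chromosome 12, 54696782 to 54696945) matched the annotated U1 gene Rnu1a1 in 163 of 164 bases. It stood at 843 FPKM in Control and 351 FPKM in ASP+ACE, with 703 under ACE+ACE and 751 under IBU+ACE. ASP+ACE thus stood at 41.7% of Control, a log2 fold change of -1.26, below every other library. Gm25360 (chromosome 1, 72226240 to 72226430) matched the annotated U2 gene Rnu2-10 in 187 of 191 bases, a 97.9% identity. It went the other way, from 1351 FPKM in Control to 2366 FPKM in ASP+ACE, and has no value for the other libraries in these tables. Gm24146 (chromosome 5, 139844930 to 139845250) is annotated as misc_RNA, and 283 of 336 alignment columns against the 7SK gene Rn7sk were identical, with a longest shared run of 79 bases. It was at 7.62 FPKM in Control, 1.25 in ASP+ACE and 1.55 in IBU+ACE, so Control was the high library. Annotated genes of at least 90% identity over at least 50% of the transcript numbered 43 for Gm22513, 14 for Gm25360 and 9 for Gm24146. Fragments of these families cannot be assigned to 1 copy with certainty, and the values may not belong to these loci.

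Of the genes for liver-secreted proteins, Afp, Apoa1 and Apoa4 were listed. Afp is alpha-fetoprotein, the main serum protein of the fetus; Apoa1 and Apoa4 are apolipoproteins of circulating lipid particles. All 3 listed members of a list of 41 liver-secreted proteins were lower in ASP+ACE, with a median log2 fold change of -0.996, beside -1.13 for all 32 transcripts with a fold change. Afp (chromosome 5, 90490737 to 90515931) stood at 130.2 FPKM in Control and 67.8 FPKM in ASP+ACE, with 34.2 under ACE+ACE and 113 under IBU+ACE. Apoa1 (chromosome 9, 46228580 to 46230466) stood at 18.3 FPKM in Control and 9.20 FPKM in ASP+ACE, with 5.03 under ACE+ACE and 17.8 under IBU+ACE. In both genes Control and IBU+ACE were the high libraries and ACE+ACE was the lowest, with ASP+ACE between at 52.0% of Control for Afp and 50.1% for Apoa1.

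Apoa4 lies 10229 bases from Apoa1 (chromosome 9, 46240696 to 46243529). It stood at 1.74 FPKM in Control and 0.361 FPKM in ASP+ACE, with 0.438 under ACE+ACE and 0.661 under IBU+ACE, so that all 3 exposed libraries were low and ASP+ACE the lowest. Its deposited locus covers 3 annotated genes, and that of Afp covers 2 with the antisense gene Gm43449. A further 7 genes of the liver list have a value in both libraries without being listed between them. Their log2 fold changes had a median of -0.24 and ran from -0.54 (Ambp) to 0.05 (Ahsg), and 6 of the 7 were below 0. Albumin (Alb), 14134 bases away from Afp, was at 52.6 FPKM in Control against 46.4 FPKM in ASP+ACE. Summed over these 10 genes the level was 232.6 FPKM in Control and 147 FPKM in ASP+ACE. It was 64.9 under ACE+ACE and 249 under IBU+ACE, and no gene was at 0. The sum includes Afp, Apoa1 and Apoa4, which were listed for being lower in ASP+ACE. Afp alone went from 130.2 FPKM in Control to 67.8 FPKM in ASP+ACE, most of the difference between these sums. The part of liver RNA in the Afp and apolipoprotein values was not tested. In whole tissue, fewer cells of a type and less RNA per cell cannot be told apart.

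Red cell genes were also lower. Hbb-y encodes a beta-like globin of embryonic red cells, Hbb-bt an adult beta globin and Slc4a1 the anion exchanger of the red cell membrane. These were the listed members of 24 red cell genes, all 3 lower, with a median log2 fold change of -0.79. Hbb-y (chromosome 7, 103851745 to 103853240) stood at 3012 FPKM in Control and 1809 FPKM in ASP+ACE, with 2350.3 under ACE+ACE and 1557 under IBU+ACE, which puts Control highest. Hbb-bt, 37748 bases away (chromosome 7, 103812524 to 103813996), was at 595 FPKM in Control and 345 FPKM in ASP+ACE, with 293 under ACE+ACE. Its transcript is 93.6% identical to that of Hbb-bs over 86.3% of its length, so reads may be split between them. Slc4a1 (chromosome 11, 102348818 to 102366203) was listed at 15.5 FPKM in Control and 8.15 FPKM in ASP+ACE, with 7.35 under ACE+ACE and 14.3 under IBU+ACE, the same order of libraries as for Afp and Apoa1. The sum over these 3 genes was 3622 FPKM in Control and 2162 FPKM in ASP+ACE, most of it Hbb-y, and none was at 0. The part of blood in these values was not tested.

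The lists of 27 embryonic muscle genes, 25 cartilage and limb genes, and 15 neural crest, neuron and endocrine genes each had 1 listed member, and each was lower. Myh3, the embryonic myosin heavy chain of skeletal muscle, stood at 4.46 FPKM in Control and 2.41 FPKM in ASP+ACE, with 1.85 under ACE+ACE and 4.54 under IBU+ACE. Its 54.1% of Control in ASP+ACE is close to the shares of Afp, Apoa1 and Slc4a1, and Control and IBU+ACE were again the high pair. Its locus (chromosome 11, 67078300 to 67102291) also holds Mir6923. Col2a1 (chromosome 15, 97975602 to 98004703), the main collagen of cartilage, was listed at 2.92 FPKM in Control and 1.10 FPKM in ASP+ACE, with 2.25 under ACE+ACE and 36.3 under IBU+ACE. ASP+ACE was its lowest library and IBU+ACE its highest. The other cartilage and limb genes with values in both libraries, 13 of a list of 25, were not listed between them and had a median log2 fold change of -0.22, with 10 below 0. Their log2 fold changes ran from -1.15 (Cxcl14) to 1.22 (Hoxa13), both genes under 1 FPKM. Among these unlisted genes Col9a1, a collagen that coats the fibrils of Col2a1, had 2.05 FPKM in Control and 1.07 FPKM in ASP+ACE. Col11a1, another collagen gene, had 6.04 FPKM in Control and 5.31 FPKM in ASP+ACE. Chgb (chromosome 2, 132781278 to 132795079), a granin of neurons and endocrine cells, had the most negative log2 fold change of the table, -3.15, but at low levels, 0.719 FPKM in Control and 0.0809 in ASP+ACE, with 0.115 under ACE+ACE and 0.0759 under IBU+ACE. Cmah (chromosome 13, 24327420 to 24477285), the enzyme that makes N-glycolylneuraminic acid, had the smallest listed change, from 7.71 FPKM in Control to 5.0 in ASP+ACE, with 4.80 in IBU+ACE. Its deposited locus covers 3 annotated genes, and it has no value under ACE+ACE.

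**Figure D2:**
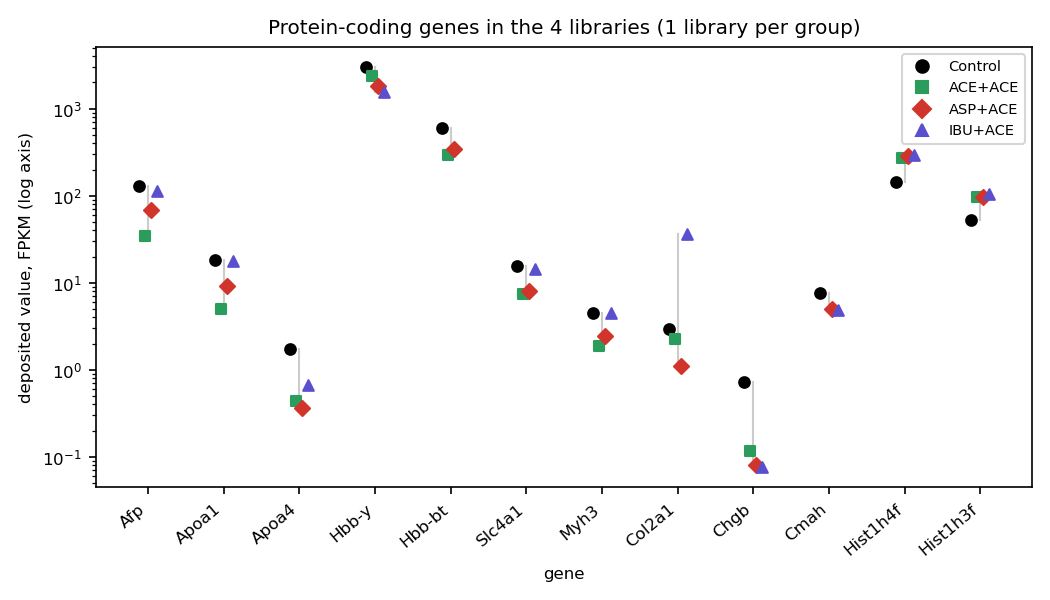
Points give the deposited FPKM (y axis, log scale) of 12 protein-coding genes in each library, 1 library per group. Control and IBU+ACE lie together above ASP+ACE and ACE+ACE for Afp, Apoa1, Slc4a1 and Myh3; Hbb-bt and Cmah have values in 3 libraries.

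Promoters of Afp and Myh3 are printed because Control and IBU+ACE were the high libraries for both genes, which belong to different tissues. Apoa1 and Slc4a1 had the same high libraries and are not printed. The 250 bases before the RefSeq start on GRCm38.p6 follow, plus strand. Capitals mark the TATA box letters TATAAA and, in Afp, GTTAAT, core letters of the sites of the liver factor HNF1.
Afp, chr5:90490464-90490713: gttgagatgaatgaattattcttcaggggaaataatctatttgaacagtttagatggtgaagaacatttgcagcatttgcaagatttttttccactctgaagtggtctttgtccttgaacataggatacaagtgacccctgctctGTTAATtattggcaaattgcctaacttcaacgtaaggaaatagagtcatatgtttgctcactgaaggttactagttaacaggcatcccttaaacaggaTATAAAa
Myh3, chr11:67078050-67078299: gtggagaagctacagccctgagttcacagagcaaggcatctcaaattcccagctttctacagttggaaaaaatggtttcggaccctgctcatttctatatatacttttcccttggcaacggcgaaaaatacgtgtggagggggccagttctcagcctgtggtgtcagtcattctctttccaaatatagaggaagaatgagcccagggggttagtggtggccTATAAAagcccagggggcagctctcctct

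RefSeq promoter windows, 250 bases before to 50 after the start, matched 11 of the 21 named genes by symbol. On either strand TATAAA occurred in 3 of the 11 (Afp, Hbb-bt and Myh3) and in 13.6% of all 32851 windows. GTTAAT occurred in Afp and Cmah among the 11 and in 7.10% of all windows. The motifs do not overlap. Apoa1, with the same high libraries as Afp and Myh3, had neither motif in its window, and no window matched Slc4a1. In Afp TATAAA begins 30 bases before the deposited start of the transcript, which lies 23 bases after the RefSeq start, and in Myh3 it begins 29 bases before the deposited start. A match describes letters and shows no binding.

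Histone genes of the replication-dependent class, which supply the chromatin of dividing cells, were the 2 protein-coding genes that were higher. Hist1h4f (chromosome 13, 23551258 to 23551648) stood at 142 FPKM in Control and 284 FPKM in ASP+ACE, with 274 under ACE+ACE and 296 under IBU+ACE. Hist1h3f, 5945 bases away (chromosome 13, 23544465 to 23545312), was listed at 52.1 FPKM in Control and 96.1 FPKM in ASP+ACE, with 96.6 under ACE+ACE and 104 under IBU+ACE. Control was the low library in both, and the 3 exposed libraries lay close together. No other gene of a list of 64 histone genes was listed. Annotated near-copies numbered 9 for Hist1h4f and 1 for Hist1h3f, whose closest copy, Hist1h3e, was 98.8% identical over 65.7% of the transcript.

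A group of 4 transcripts was lower in ASP+ACE than in each other library, by the authors' calls in all 3 tables that hold ASP+ACE. Besides Gm22513 these were Rpsa-ps10 and a pair of unnamed transcripts on chromosome 2. Rpsa-ps10 (chromosome 3, 150072658 to 150073542) is a pseudogene of the ribosomal protein gene Rpsa and is 99.3% identical to it over its whole length. It stood at 195 FPKM in Control and 119 FPKM in ASP+ACE, with 193 under ACE+ACE and 196 under IBU+ACE. Control, ACE+ACE and IBU+ACE thus lay close together. With 19 annotated near-copies, its reads may stem from elsewhere.

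The chromosome 2 pair belongs to a run of 3 unnamed transcripts between 77869441 and 77877360, outside annotated genes and nearest to Gm13727. The transcript at 77869441 to 77871555 stood at 1.23 FPKM in Control and 0.186 FPKM in ASP+ACE, with 0.867 under ACE+ACE and 1.05 under IBU+ACE. The one at 77875529 to 77877360 was listed at 8.86 FPKM in Control and 1.98 FPKM in ASP+ACE, with 6.60 under ACE+ACE and 9.49 under IBU+ACE. The middle one, at 77873056 to 77875047, had 1.63 FPKM in Control, 0.249 in ASP+ACE and 1.36 in IBU+ACE. ASP+ACE therefore stood at 15.1%, 15.2% and 22.3% of Control along this stretch, in the order of position. Separate transcripts that lie 481 and 1500 bases apart may be pieces of 1 RNA, so they do not count as independent.

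A pair of listed transcripts near Tgif2 on chromosome 2 moved in opposite directions. A Tgif2 pseudogene on chromosome 17 was listed as well. Tgif2 itself, a homeodomain repressor of TGF-beta signalling (chromosome 2, 156840007 to 156855570), was not listed. The lincRNA Gm14230 (deposited locus chromosome 2, 156830585 to 156839923) lies 83 bases from the start of Tgif2 and was higher, from 1.84 FPKM in Control to 6.46 FPKM in ASP+ACE, a log2 fold change of 1.81. An unnamed transcript on its other side, 1029 bases away (chromosome 2, 156826682 to 156829555) was lower, with 1.02 FPKM in Control, 0.403 in ASP+ACE and 0.975 in IBU+ACE. The pseudogene Tgif2-ps2 (chromosome 17, 40115358 to 40116068), 99.3% identical to Tgif2 over its whole length, had 3.61 FPKM in Control, 1.21 in ASP+ACE and 3.94 in IBU+ACE. ASP+ACE was the lowest of the values available for the unnamed transcript and Tgif2-ps2, which have none under ACE+ACE. Gm14230 has no value under ACE+ACE or IBU+ACE. Reads of Tgif2 and Tgif2-ps2 are hard to separate at that identity.

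Lars2, the mitochondrial leucyl-tRNA synthetase gene, and 4 short unnamed transcripts were the listed transcripts of at least 10 FPKM in Control that were at least 2-fold lower in each of the 3 exposed libraries, a rule set after the values were seen. Among these 5, ASP+ACE was the least reduced. Across these 5, ASP+ACE stood at 24.7% to 30.4% of Control, ACE+ACE at 11.1% to 14.9% and IBU+ACE at 9.88% to 17.6%. ASP+ACE was 1.98 to 2.43 times ACE+ACE and 1.45 to 2.50 times IBU+ACE. Transcripts under 10 FPKM in Control but at least 2-fold lower in all exposed libraries did not share 1 order. For Apoa4 ASP+ACE was the lowest, at 20.8% of Control against 25.2% in ACE+ACE and 38.0% in IBU+ACE. For Chgb ASP+ACE lay between the others, and for the unnamed transcript at 105949694 on chromosome X it was the least reduced. Lars2 had 44.8 FPKM in Control and 11.8 in ASP+ACE, the 87 nt transcript (chromosome 1, 136364885 to 136364971) 11901 and 2944 FPKM, and the 123 nt one (chromosome 1, 102628205 to 102628327) 1759 and 535 FPKM. The 130 nt transcript (chromosome 6, 3201436 to 3201565) had 299 and 76.5 FPKM, and the 437 nt one (chromosome 3, 5860338 to 5860774) 224 and 67.6 FPKM. The authors also listed ASP+ACE as higher than ACE+ACE and IBU+ACE for Lars2 and the 437 nt transcript. The Lars2 transcript holds 72 bases that are 98.6% identical to the antisense gene Gm15564 and 187 bases that are 80.1% identical to AA474408, and no near-copy over 50% of its length. The genome sequence of the unnamed transcripts was not used here.

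**Figure D3:**
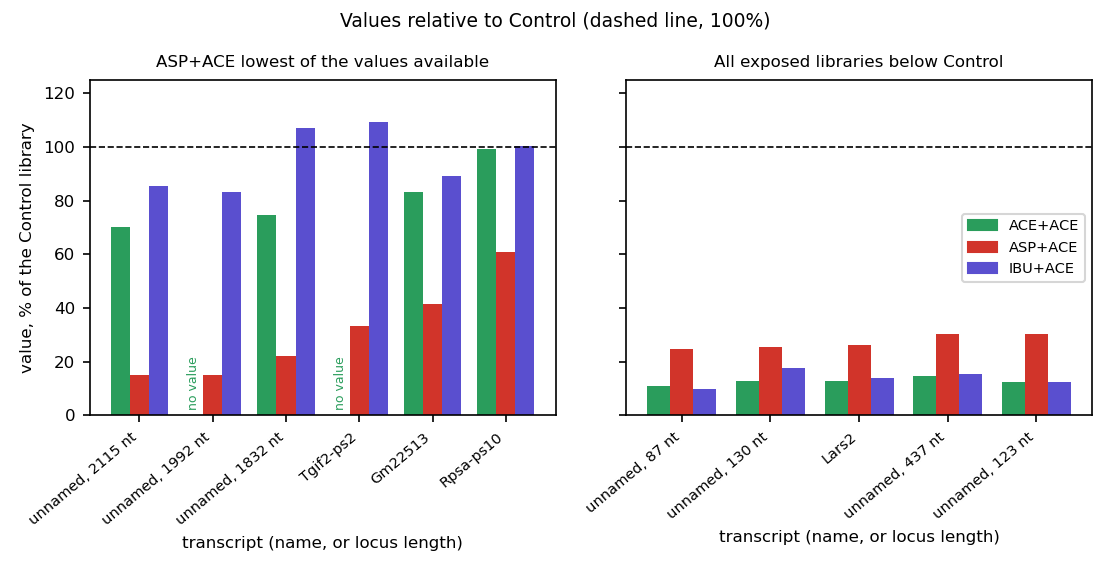
Bars give each exposed library's FPKM as a percentage of the Control library (y axis, dashed line at 100%). Shown are 6 transcripts in which ASP+ACE was lowest of the values available (left) and Lars2 with 4 unnamed transcripts (right). The 6 were picked by name, and others with ASP+ACE lowest, such as Apoa4, Col2a1 and Gm24146, are not shown. ASP+ACE lies at 15.1% to 61.0% on the left and at 24.7% to 30.4% on the right, where it is above both other libraries.

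Of the transcripts that were higher without a name, 3 lie together on chromosome 1 between 35566122 and 35608435, away from annotated genes. The longest (35567633 to 35608435) stood at 0.0803 FPKM in Control and 0.758 FPKM in ASP+ACE, with 0.525 under ACE+ACE and 1.11 under IBU+ACE, a log2 fold change of 3.24 for ASP+ACE. The pair beside it was listed at 0 in Control and had 0.333 and 0.573 FPKM in ASP+ACE, and 0.456 and 0.760 FPKM in IBU+ACE. Control was the low library throughout. A 122 nt transcript (chromosome 1, 122357128 to 122357249) had 17614 FPKM in Control and between 29288 and 33322 FPKM in the exposed libraries. At such lengths, which 8 loci under 200 nt share, FPKM may not measure abundance. On chromosome 11 an unnamed transcript near Kif2b (91547012 to 91571353) was listed at 0.244 FPKM in Control and 0.615 FPKM in ASP+ACE. The non-coding RNA A230004M16Rik (chromosome 11, 41710342 to 42000857), whose deposited locus covers 3 annotated genes, had 5.76 FPKM in Control, 9.70 in ASP+ACE and 9.98 in IBU+ACE. On chromosome X an unnamed transcript (105949694 to 105958216), 9867 bases from Magt1, was lower, with 0.912 FPKM in Control and 0.305 FPKM in ASP+ACE, against 0.0227 under ACE+ACE and 0.173 under IBU+ACE.

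Listed at 0 in Control were 7 transcripts with 0.333 to 1.71 FPKM in ASP+ACE, among them the pseudogene Gm14414 (chromosome 2, 177460275 to 177460847) with 0.998 FPKM there, 1.80 in ACE+ACE and 0 in IBU+ACE. Its annotated near-copies numbered 19. Besides the chromosome 1 pair, the unnamed ones lie on chromosome 13 (77630072 to 77630433; 0.662 FPKM), chromosome 18 (34530810 to 34531556; 0.395 FPKM), chromosome 4 (132926755 to 132927014; 1.16 FPKM) and chromosome 8 (26247021 to 26247261; 1.71 FPKM). Listed at 0 in ASP+ACE were 5 unnamed transcripts. The 90 nt transcript of chromosome X (135699267 to 135699356) had 709.8 FPKM in Control. The other 4 had 0.426 FPKM (chromosome 12, 91792595 to 91794504), 0.462 FPKM (chromosome 3, 58498245 to 58498808), 2.54 FPKM (chromosome 1, 72404678 to 72404885) and 3.40 FPKM (chromosome 11, 116707358 to 116707544). Apart from that 90 nt transcript, every value in this set was at most 3.40 FPKM. No fold change is given for these 12, since a 0 here sets no bound.

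Among the 44 transcripts, 23 have a value in all 4 libraries. Control was the highest library for 14 of them and the lowest for 4. ASP+ACE was the lowest for 6 and the highest for 0, and it lay between other libraries for 17. All were listed for a difference between Control and ASP+ACE, and other values exist only where a further comparison called the transcript. These places are therefore partly set by how the transcripts were chosen. The ACE+ACE and IBU+ACE comparisons use the same Control library, so values in common with them are set side by side and not counted as support. Neither of those Control tables holds 17 of the 44 transcripts, 11 lower and 6 higher, and 10 of the 17 stand in no other table at all. Within 50 kb of another listed transcript lay 14 of the 44, forming 10 pairs. Of these, 9 moved in 1 direction and 1, Gm14230 with its unnamed neighbour, in opposite directions. Most of the 9 join adjacent unnamed transcripts of the runs at 35566122 on chromosome 1 and 77869441 on chromosome 2, which may not be independent. Since 29 of all 44 were lower, the count was not read as a property of neighbours.

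Of 17 gene lists, 10 had no listed member: Sertoli, Leydig, germ cell pluripotency with Nodal, male germ cell, meiosis, prostaglandin, mesonephros, ovarian, endothelial with macrophage, and xenobiotic with metal response. Absence from a table of called transcripts does not say that a gene was level. Values outside the list could be read from the other tables for 106 transcripts, 100 of them above 0 in both libraries. Their median log2 fold change of ASP+ACE over Control was -0.16, from -1.58 to 1.22, with 73 below 0 and 27 above, and 6% were past 2-fold. They were deposited for differing between other libraries, so they are no random sample. The 6 past 2-fold were the low-level genes Hoxa13, Gabrp, Cxcl14 and Lmx1b, each under 1 FPKM in both libraries, and 2 unnamed transcripts. Nearest to no change among listed transcripts was Cmah, at a log2 fold change of -0.62.

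**Figure D4:**
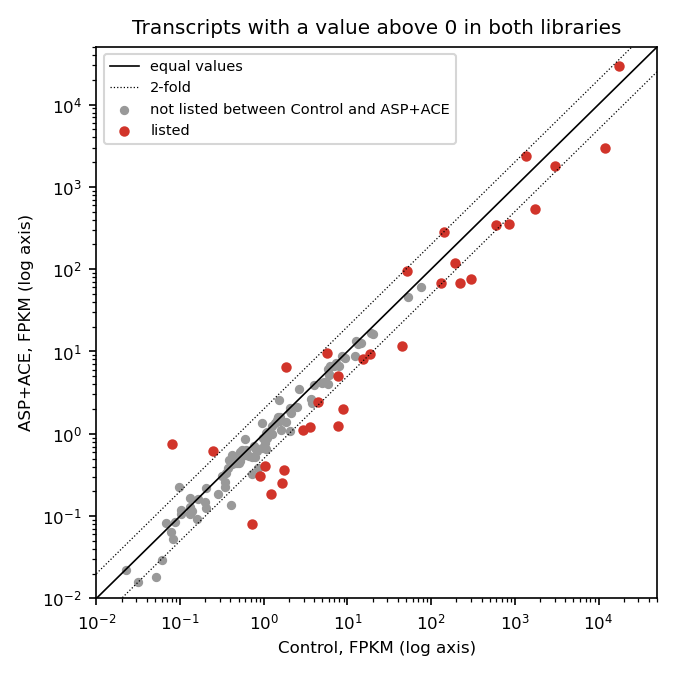
Points compare Control (x axis) with ASP+ACE (y axis), both in FPKM on log scales, for the 32 listed transcripts (red) and 100 transcripts of other tables not listed between these libraries (grey). Most grey points lie between the dotted 2-fold lines, whereas 19 of the 32 red points lie on or outside them.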

How the data were processed

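Total RNA of 4 testis samples, 1 per group, was sequenced as stranded libraries after removal of ribosomal RNA, per the labels' protocols. Per the submitters' processing notes the tools were Cufflinks 2.2.1, TopHat2 2.1 and Bowtie2 2.2.6, with SAMtools 1.3, FastQC and bcl2fastq 2.17, on GRCm38; settings are absent from those notes. The authors deposited tables of called transcripts with 2 values each, taken as FPKM from their Cufflinks layout, a log2 fold change, a p-value of 5e-05 and a q-value of 0.0310; the file headers name no unit. No source used here says whether fragments were assigned by strand or how multiply aligned ones were shared. Depth is unknown.

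Decimal commas were read as points, 1 was added to each start, and folds were recomputed from the values (largest gap to the authors' log2 7.92e-06). Library EtOH was taken as Control. Python 3.11.15 and matplotlib 3.10.9 were used; reading was tested on 200 simulated rows. Values of other libraries came from the other tables, and 0 disagreed. Loci were set against GENCODE M21, copies found with blastn 2.17.0 (near-copy: 90% identity over 50% of the transcript), and promoters taken from RefSeq. Some items are not reported here. The members and gene lists were chosen with earlier results of these data known. All named transcripts are named here; unnamed ones were to be named if among the 10 largest folds, at 0, or listed for ASP+ACE elsewhere, and the rest were added after their values were seen. The Tgif2 and Lars2 sequence comparisons and the promoter motifs were also chosen after seeing the data, and GTTAAT replaced a longer HNF1 motif that had matched Afp. Alternatives were pseudocounts, filters on level, fold, length and kind of transcript, and q.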

Additional observations from a re-analysis of the deposited data

Results flagged for a closer look

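Col2a1 moved in opposite directions in a pair of comparisons with Control: its log2 fold change was -1.41 for ASP+ACE and 3.64 for IBU+ACE, from 2.92 FPKM in Control to 1.10 and 36.3 FPKM. Both comparisons use the same Control library. The difference was not tested, since each group is 1 library.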

How the results depend on the processing

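With 1 library per group no spread between replicates can be measured, no library can be left out, and the reads behind a value are unknown. No paired analysis was possible because each group has 1 library. The 44 listed transcripts (15 higher, 29 lower) became 17 (3 higher, 14 lower) when an absolute log2 fold change of 1 was asked for after adding 1 FPKM, 21 (6 higher, 15 lower) with named genes only, and 0 in either direction at a q of 0.01, since all rows share 1 q. With a higher value of at least 1 FPKM, 8 higher transcripts were left. The other alternatives, including leaving out near-copies or liver and red cell genes (both added after seeing the data), kept each count within 1.5 times. The median log2 fold change of -1.13 stayed negative throughout. Of 14 list medians recomputed with a pseudocount, 12 kept their size within 1.5 times; the single-gene medians of Col2a1 (-0.90) and Chgb (-0.67) shrank after adding 1 FPKM. The planned search of the short unnamed transcripts' genome sequence was not run.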
